A study of Homo sapiens with 6 samples.

Results

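The genes described here are 44 proteasome subunits and assembly factors, listed by name and found by symbol among the 62443 genes of a table of RNA-sequencing values from HGC-27 cells, an established line from an undifferentiated human gastric carcinoma. To ask which transcripts differ when these cells meet the peptide GLUP, 3 control libraries (Con) were compared with 3 libraries of GLUP-treated cells. GLUP is a disulfide-cyclized peptide derived from VGLL4, a cofactor of the TEAD transcription factors, and was built to hold TEAD4 molecules together. The labels give Con as having no treatment, whereas the methods of the study name the storage buffer of the peptide as its control. All 6 libraries came from the same line, grown in RPMI medium with fetal bovine serum, and the labels name no genetic change in either group. The methods speak of biological replicates without tying each library to its own culture, so that p-values measure the spread between these libraries, which may be technical. The treatment time differs between the results and the methods of the study and is not used here.

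The unit of every value is FPKM, fragments scaled to transcript length and to the fragments of the library. FPKM totals lay between 909735 and 965147 per library, 20061 to 21498 genes were above 0, and mitochondrial genes held 21.9% to 29.7% of the totals. Read counts were not given, and a common step among the values of single-transcript genes put the relative depth between 0.829 (Con replicate 2) and 1 (GLUP replicate 2). Of the mesenchymal markers, VIM, an intermediate filament gene, was at 222 to 387 FPKM, but FN1 lay between 0.644 and 3.25 FPKM and CDH2 did not exceed 0.0508 FPKM. The epithelial genes EPCAM and CDH1 did not exceed 0.124 FPKM and KRT8, KRT18 and KRT19 lay between 0.764 and 2.51 FPKM. Of the blood, endothelial and gastric mucous markers, CD3E, TFF1, PTPRC, LYZ, VWF and MUC5AC were at 0 or did not exceed 0.25 FPKM. The Con libraries were more scattered than the GLUP libraries: the SD of a proteasome gene on the log2 scale had a median of 0.42 in Con and 0.14 in GLUP, and was larger in Con for 39 of the 44 genes on the FPKM scale. In bulk RNA, fewer cells of a kind and less RNA per cell cannot be told apart.

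The proteasome degrades proteins that carry chains of ubiquitin. Its core particle is a barrel of stacked rings, in which alpha subunits form the outer rings and gate the channel, and beta subunits form the inner rings and hold the catalytic sites. Caps bind the ends of the barrel: the regulatory particle, whose ATPases unfold the substrate and whose other subunits recognise and remove ubiquitin, or the ring-shaped activators. Under interferon, immunoproteasome subunits take the place of the catalytic beta subunits, and alter the peptides cut for display on class I molecules, and dedicated chaperones assemble the rings. In many cell types, the transcription factors NFE2L1 and NF-Y keep the genes of the subunits at matched levels, and cancer cells with a high protein turnover rely on the complex.

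Because proteasome genes are often read out together through shared promoter elements, promoter windows were examined first. RefSeq promoter windows (300 bases around an annotated start, mostly upstream, build GRCh38.p14) were matched by symbol for 38 of the 44 genes, with 49 windows in all. PSMA7, PSMB1, PSMB6, PSMB7, PSMD4 and PSMG3 had no entry. The windows printed here belong to some of the genes whose Con and GLUP libraries did not overlap, among them the gene of highest level. None of the 44 genes passed a limma adjusted p of 0.05. Among all tested genes, 22.7% were lower and 7.55% higher in GLUP without overlap. By limma, POMP and PSMG1, whose windows are not printed, had a smaller unadjusted p (0.019 and 0.022) than PSMC4 and PSMB8 (0.068 and 0.058). PSME3, PSMD14 and PSMD1 were lower in every GLUP library than in any Con library, PSME2 was the most abundant of the 44 genes and also lower, and PSMC4 and PSMB8 were higher in every GLUP library. Without Con replicate 2, the log2 differences of PSMC4 and PSMB8 were 0.38 and 0.40, in place of 0.90 and 0.93. Capitals mark any match, on either strand, to the short motifs CCAAT (bound by NF-Y), TGACNNNGC (the antioxidant response element bound by NFE2L1 and NFE2L2), CCGGAAG (ETS family), GCGCATGCG (nuclear respiratory factor NRF1), CATTCC (TEAD family) and GAAANNGAA (interferon regulatory factors).
PSME3, chr17:42833147-42833446, plus strand: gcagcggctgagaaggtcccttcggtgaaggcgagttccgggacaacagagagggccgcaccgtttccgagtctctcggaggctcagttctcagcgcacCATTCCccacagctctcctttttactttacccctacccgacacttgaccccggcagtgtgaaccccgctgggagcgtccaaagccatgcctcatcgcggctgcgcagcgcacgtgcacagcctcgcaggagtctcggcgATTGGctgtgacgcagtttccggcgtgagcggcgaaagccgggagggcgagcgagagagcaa
PSMD14, chr2:161308175-161308474, plus strand: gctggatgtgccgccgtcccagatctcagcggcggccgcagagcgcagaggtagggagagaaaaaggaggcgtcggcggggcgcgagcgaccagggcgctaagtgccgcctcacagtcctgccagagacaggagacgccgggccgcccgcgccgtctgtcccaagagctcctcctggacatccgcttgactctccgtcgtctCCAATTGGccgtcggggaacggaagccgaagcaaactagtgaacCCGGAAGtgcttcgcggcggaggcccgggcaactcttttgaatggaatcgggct
PSMD1, chr2:231056617-231056916, plus strand: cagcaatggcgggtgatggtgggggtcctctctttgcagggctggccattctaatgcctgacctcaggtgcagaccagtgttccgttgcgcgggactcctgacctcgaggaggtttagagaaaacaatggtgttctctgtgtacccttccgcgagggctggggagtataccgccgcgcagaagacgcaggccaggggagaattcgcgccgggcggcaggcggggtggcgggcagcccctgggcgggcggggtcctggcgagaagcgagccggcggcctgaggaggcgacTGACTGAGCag
PSME2, chr14:24146561-24146860, minus strand: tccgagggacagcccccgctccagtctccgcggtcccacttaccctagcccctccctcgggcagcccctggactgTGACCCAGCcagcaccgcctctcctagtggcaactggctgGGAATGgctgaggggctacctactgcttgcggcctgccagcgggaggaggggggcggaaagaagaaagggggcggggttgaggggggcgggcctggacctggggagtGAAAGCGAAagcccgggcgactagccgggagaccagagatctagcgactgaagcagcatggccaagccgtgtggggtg
PSMC4, chr19:39970915-39971214, plus strand: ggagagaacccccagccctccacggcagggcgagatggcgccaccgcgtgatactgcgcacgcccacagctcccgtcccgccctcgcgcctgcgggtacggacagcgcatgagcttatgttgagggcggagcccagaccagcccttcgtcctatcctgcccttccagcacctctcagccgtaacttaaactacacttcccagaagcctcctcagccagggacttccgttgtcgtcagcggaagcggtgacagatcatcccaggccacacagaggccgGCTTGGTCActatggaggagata
PSMB8 (the second of its windows), chr6:32843998-32844297, minus strand: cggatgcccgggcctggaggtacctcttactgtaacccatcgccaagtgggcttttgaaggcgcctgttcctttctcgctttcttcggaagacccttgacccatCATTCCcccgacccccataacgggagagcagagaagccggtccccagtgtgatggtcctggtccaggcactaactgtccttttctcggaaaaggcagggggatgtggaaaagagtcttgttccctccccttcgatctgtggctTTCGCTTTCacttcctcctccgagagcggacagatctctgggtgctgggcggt

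The window of PSME3 held the letters of the TEAD motif and of the NF-Y motif, and that of PSME2 held the TEAD, antioxidant response and interferon regulatory motifs. PSMD14 held overlapping NF-Y letters read from both strands and an ETS match, while PSMD1 and PSMC4 each held a single antioxidant response match. PSMB8 held a TEAD and an interferon regulatory match in the printed window and no match in its first window. Among all 49 windows of the proteasome genes, TGACNNNGC was present in 30.6%, compared with 13.3% of the 35116 windows of all genes, and CCGGAAG was present in 24.5% compared with 10.3%. GAAANNGAA was present in 18.4% compared with 8.11%, CCAAT in 42.9% compared with 34.6%, and GCGCATGCG in 4.08% compared with 1.92%. CATTCC, the TEAD letters, was present in 16.3% of the proteasome windows and 14.03% of all windows. A match is a description of the letters only, and no motif was tested for a relation to the values.

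The transcripts of the complex were abundant but far from equal. All 44 genes reached the mean of 1 FPKM needed for testing and 43 had a mean of at least 5 FPKM, from 1.42 FPKM for PSMD3 to 4956 FPKM for PSME2. Subunits that enter the particle in equal numbers differed widely per length: within the alpha ring, PSMA5 had a mean of 17.6 FPKM and PSMA2 of 652 FPKM, and the highest gene exceeded the lowest by 29.7-fold to 80.2-fold within a library. The constitutive beta ring had the highest median of means, 986 FPKM, and the narrowest spread of the core particle, 17.5-fold to 27.8-fold within a library. The ATPases had a median of 77.8 FPKM and the other regulatory subunits of 53.9 FPKM. Across the 44 genes, the mean FPKM was lower for longer canonical transcripts (Spearman's rho -0.54, n = 44 genes from the same 6 libraries), and the same relation over all tested genes was -0.31 (n = 7279). The plot of levels shows each gene in each library.

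**Figure D1:**
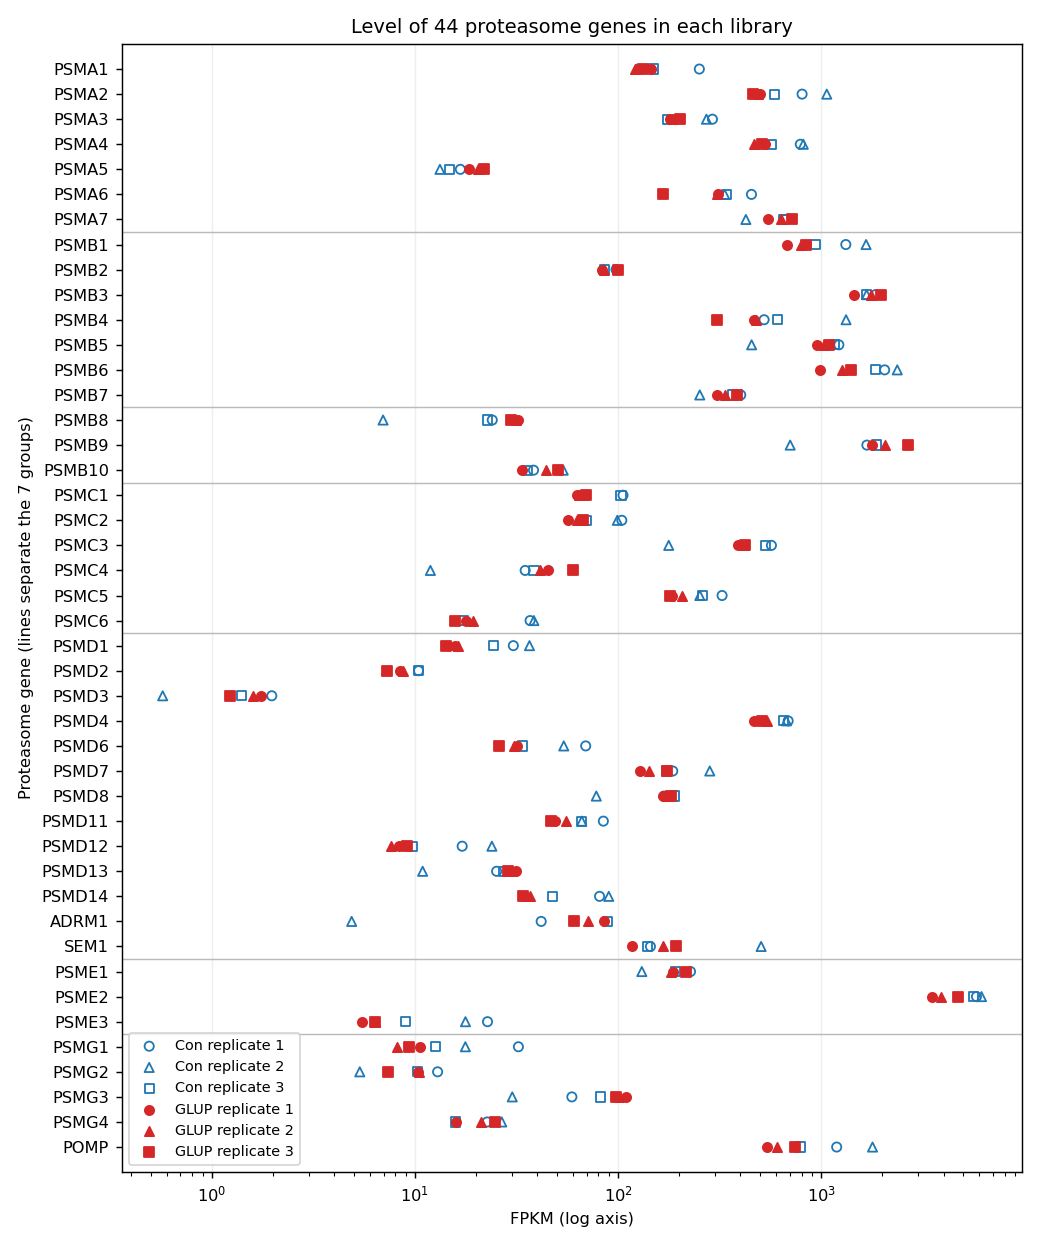
FPKM of the 44 proteasome genes in each library, on a log axis, with open blue symbols for the 3 Con libraries and filled red symbols for the 3 GLUP libraries, ordered by the 7 groups of the complex. PSMD3 lies lowest, with a mean of 1.42 FPKM, and PSME2 highest, with a mean of 4956 FPKM; the open symbols are spread more widely than the filled ones for most genes.

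Next, GLUP was compared with Con. The test was limma on log2(FPKM + 1) over the 7406 genes whose mean reached 1 FPKM, adjusted by Benjamini-Hochberg over all of them, and differences on this scale understate the change of low genes. Of the 44 genes, 28 had a lower mean in GLUP and 16 a higher mean, and the median difference was -0.38 (GLUP minus Con, log2 scale). The whole table leaned the same way, since 65.5% of all tested genes were lower and their median difference was -0.23. No proteasome gene passed an adjusted p of 0.05, and neither did any of the 7406 genes (0%). Set against the whole table, the median of the 44 stood at -0.15. The lowest adjusted p among the 44 genes was 0.194, shared by PSME3, PSMD1, PSMD14 and PSMB6. On the log2(FPKM + 1) scale the difference exceeded 1 for PSME3 (lower) and ADRM1 (higher). As a ratio of the group means in FPKM, GLUP over Con, PSME3 was at 0.369, PSMG1 at 0.449, PSMD14 at 0.480 and PSMD12 at 0.496, and the highest of the 44 was PSMG3 at 1.80.

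The libraries of both groups did not overlap for 18 genes that were lower in GLUP, 40.9% of the 44, compared with 22.7% of all tested genes, and for 5 genes that were higher, 11.4% compared with 7.55%. At an unadjusted p under 0.05, limma gave 12 lower genes (27.3% of the 44) compared with 17.2% of all tested genes, and 1 higher gene, PSMG3 (2.27%), compared with 4.46%. With 3 libraries against 3, an exact permutation test of a single gene cannot go below 0.1, the value of every gene without overlap.

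The counts depended on the scaling. Under the trimmed mean of log ratios, which moved the median of all tested genes to -0.01, 24 of the 44 genes were lower and their median was -0.08. The genes without overlap were then 11 lower (25%, with 14.4% of all tested genes) and 7 higher (15.9%, with 14.2% of all), in place of 18 and 5. By group, 5 alpha genes, 3 beta genes, 4 ATPases, 8 of the other regulatory subunits, 2 activators and 2 assembly genes were lower, and no immunoproteasome gene was. The beta ring and the assembly genes changed the sign of their median, to 0.28 and 0.21.

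The counts also turned on the Con libraries. Con replicate 2 was the lowest of the 6 libraries for 16 of the 44 genes and the highest for 15, and Con replicate 1 was the highest for 18. Without Con replicate 2, 34 genes were lower in GLUP, 23 of them without overlap (52.3%, with 28.7% of all tested genes), and 5 were higher without overlap (11.4%, with 9.21% of all). Without Con replicate 3, limma called 10 genes lower (22.7%, with 16.3% of all tested genes) and 1 higher (2.27%, with 2.2% of all), at an adjusted p under 0.05 with 2 control libraries left. The 10 were PSMA2, PSMB1, PSMC6, PSMD1, PSMD6, PSMD12, PSMD14, PSME3, PSMG1 and POMP, and the higher gene was PSMG3.

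**Figure D2:**
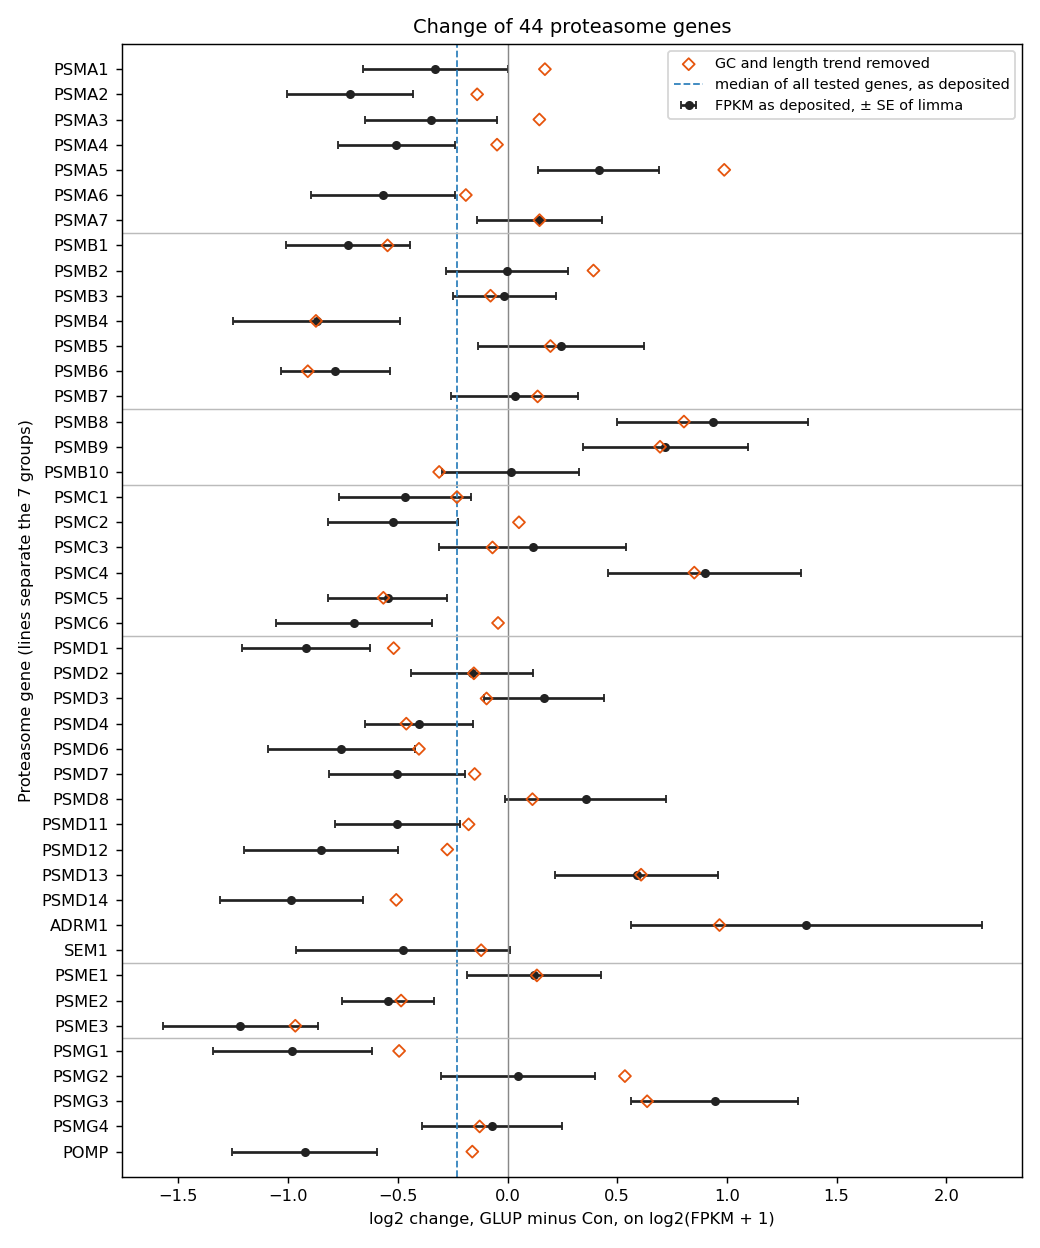
Difference between GLUP and Con for each of the 44 proteasome genes on the log2(FPKM + 1) scale. Filled points with bars are the values as deposited ± the standard error of limma (n = 3 libraries a group), open diamonds are the values after removal of the trend in GC content and length, the solid line marks 0 and the dashed line the median of all tested genes, -0.23. PSME3 is lowest at -1.22 and ADRM1 highest at 1.36, and POMP moves from -0.92 to -0.16 once the trend is removed.

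The differences followed base composition, in the proteasome genes as in the table as a whole. Across the 44 genes, Spearman's rho between the log2 difference and the GC content of the canonical transcript was 0.54, and across 7279 tested genes it was 0.56. The 15 genes of lowest GC content (33.1% to 44.1%) included 13 lower in GLUP, and their median difference was -0.57. The 15 of middle GC content included 10 lower, with a median of -0.50, and the 14 of highest GC content (52.9% to 63.2%) included 5 lower, with a median of 0.14. All tested genes within the same ranges gave much the same shares: 89.1%, 69.3% and 33.4% were lower, compared with 86.7%, 66.7% and 35.7% of the proteasome genes. The medians of all tested genes in these ranges were -0.50, -0.23 and 0.22.

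The relation was also present within single libraries. The deviation of a proteasome gene from its own mean correlated with GC content at -0.49 in Con replicate 1 and -0.56 in Con replicate 2, but at 0.57 in Con replicate 3, which had the sign of the GLUP libraries (0.40, 0.60 and 0.52). After a loess fit on GC content and length was subtracted from each library, the relation across the 44 genes was 0.08 and the median difference was -0.11, while that of all tested genes was 0.01. Of the 18 genes lower without overlap, 8 were still so (18.2% of the 44, with 13.7% of all tested genes): PSMB1, PSMB6, PSMC5, PSMD1, PSMD4, PSMD14, PSME2 and PSME3. Of the 5 higher genes, PSMA5, PSMB8, PSMC4, PSMD13 and PSMG3 all remained, and PSMB2 joined them (6 genes, 13.6%, with 14.5% of all tested genes). The part of base composition in the differences was not tested further.

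**Figure D3:**
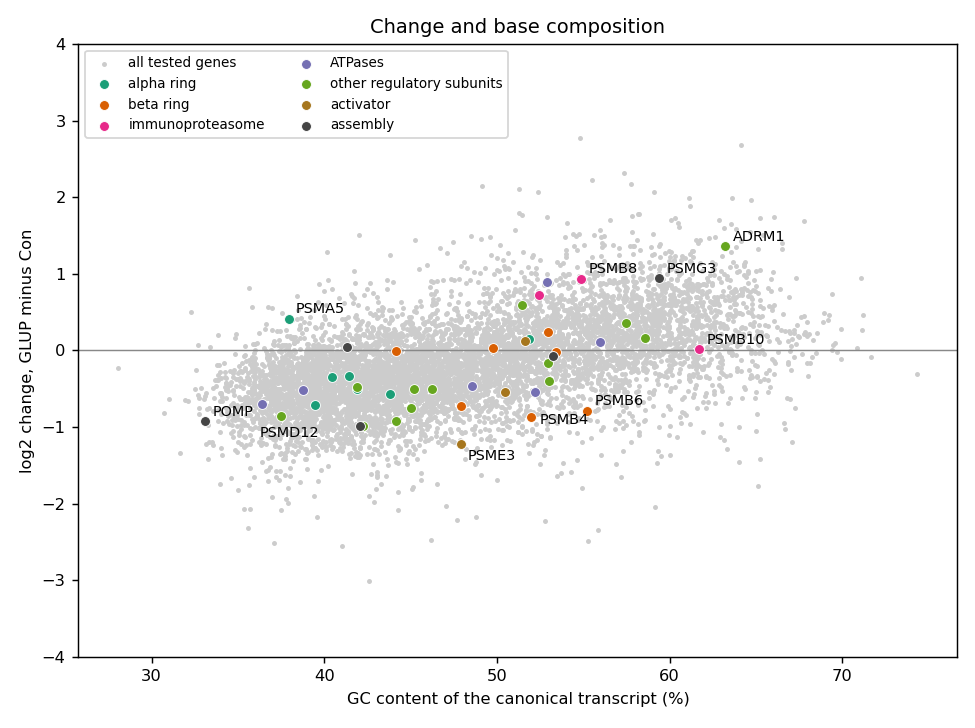
Log2 difference, GLUP minus Con, against the GC content of the canonical transcript (%), with all tested genes in grey and the 44 proteasome genes coloured by group. Points climb from lower left to upper right in both sets (rho 0.54 for the proteasome genes and 0.56 for all tested genes), with POMP at 33.1% GC and ADRM1 at 63.2% GC near the ends; PSMA5 and PSME3 lie away from the diagonal.

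Most genes of the alpha ring, which forms the gate of the core particle, were lower in GLUP. Of its 7 genes, 5 were lower (71.4%, with 65.5% of all tested genes) and 2 higher, and the median difference was -0.35. Without overlap, 3 of the 7 were lower, compared with 22.7% of all tested genes. No alpha gene passed the adjusted threshold. PSMA2 was at 805, 1065 and 589.5 FPKM in the Con libraries (replicates 1, 2 and 3 in order, here and throughout) and at 499, 491 and 463 FPKM in the GLUP libraries, a difference of -0.72 ± 0.29 (SE). PSMA4 was at 789, 816 and 567 FPKM in Con and at 531, 468 and 511 FPKM in GLUP (-0.51 ± 0.27). PSMA6 was at 454, 335 and 341 FPKM in Con and at 309, 306 and 167 FPKM in GLUP (-0.57 ± 0.33).

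In these alpha genes the groups did not overlap, and for PSMA2 and PSMA4 the nearest control was Con replicate 3. Under the trimmed mean of log ratios, the groups of PSMA6 overlapped (-0.27). Once the GC and length trend was removed, PSMA2 stood at -0.14, PSMA4 at -0.05 and PSMA6 at -0.19, and the median of the ring was 0.14, with 3 genes lower. PSMA5 went the other way, from 16.7, 13.3 and 14.8 FPKM in Con to 18.5, 20.3 and 21.9 FPKM in GLUP (0.42 ± 0.28), and at 37.9% it had a lower GC content than the other alpha genes. Its difference was 0.99 after the trend was removed. PSMA6 has an expressed pseudogene, PSMA6P1 (3.15 FPKM), and an overlapping unnamed gene on the same strand (6.80 FPKM), so that its values carry that uncertainty.

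In the constitutive beta ring, 5 of 7 genes were lower in GLUP (71.4%, with 65.5% of all tested genes), whereas the median difference was -0.02. Without overlap, 3 of the 7 were lower, compared with 22.7% of all tested genes. PSMB6, the caspase-like catalytic subunit, was at 2053, 2368 and 1845 FPKM in Con and at 989, 1265 and 1397 FPKM in GLUP, a difference of -0.79 ± 0.25 (SE). Every GLUP value was below every Con value, and the difference was -0.91 after the GC and length trend was removed. PSMB1, a structural subunit, was at 1322, 1663 and 941 FPKM in Con and at 682, 795 and 839 FPKM in GLUP (-0.73 ± 0.28). PSMB4, also structural, was at 523, 1325 and 611 FPKM in Con and at 467, 479.9 and 308 FPKM in GLUP (-0.87 ± 0.38).

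The high value of PSMB4 in Con replicate 2 set much of its difference, which was -0.46 without that library. PSMB3, the most abundant beta gene, was at 1850.4, 1673 and 1674 FPKM in Con and at 1456, 1753 and 1965 FPKM in GLUP. Its groups overlapped, and its difference of -0.02 ± 0.23 turned to 0.28 under the trimmed mean of log ratios. The chymotrypsin-like catalytic subunit PSMB5 (0.24 ± 0.38) and the trypsin-like PSMB7 (0.03 ± 0.29) overlapped between the groups, with Con replicate 2 the lowest library for both. Without it, they stood at -0.22 and -0.17, and all 7 beta genes were lower with a median of -0.22. PSMB2 was the least abundant, with a mean of 89.5 FPKM.

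The immunoproteasome genes were on the higher side. All 3 had a higher mean in GLUP, with a median difference of 0.72, whereas 65.5% of all tested genes were lower. Without overlap, 1 of the 3, PSMB8, was higher, compared with 7.55% of all tested genes. PSMB8, which takes the place of PSMB5, was at 24.0, 6.97 and 22.7 FPKM in Con and at 32.3, 31.4 and 29.7 FPKM in GLUP (0.93 ± 0.44). PSMB9, which takes the place of PSMB6, was at 1678, 703 and 1868 FPKM in Con and at 1769, 2071 and 2684 FPKM in GLUP (0.72 ± 0.38). PSMB10, which takes the place of PSMB7, was at 38.3, 53.7 and 35.6 FPKM in Con and at 33.8, 44.3 and 50.3 FPKM in GLUP (0.01 ± 0.31).

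For PSMB8 and PSMB9 the lowest library was Con replicate 2, and without it their differences were 0.40 and 0.28. The difference of PSMB10 took either sign depending on the scaling and was -0.31 after the GC and length trend was removed. PSMB9 exceeded PSMB8 by 54.8-fold to 101-fold in FPKM within a library. In GENCODE release 44 lifted to GRCh37, both lie on chromosome 6 and overlap on opposite strands, with PSMB8 at chr6:32808494-32812456 on the minus strand and PSMB9 at chr6:32811913-32827628 on the plus strand. The strand setting of the counting is not stated, and PSMB8-AS1 (2.76 FPKM) overlaps both, so that the low value of PSMB8 in particular could hold reads of its neighbours.

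The exchange of catalytic subunits was then read as a ratio of FPKM within each library, for 3 pairs. PSMB9 to PSMB6 was 0.818, 0.297 and 1.01 in Con and 1.79, 1.64 and 1.92 in GLUP, so that PSMB9 exceeded PSMB6 in all GLUP libraries and in Con replicate 3. The difference of the log2 ratio was 1.51 (Con -0.67 ± 0.95, GLUP 0.83 ± 0.12, SD, n = 3 each), and 0.97 without Con replicate 2. PSMB8 to PSMB5 was 0.0197, 0.0153 and 0.0195 in Con and 0.0338, 0.0303 and 0.0272 in GLUP, a log2 difference of 0.75, and 0.63 without Con replicate 2. Both ratios were higher in every GLUP library, with a two-sided exact permutation p of 0.1, the smallest the design allows (adjusted over the 3 ratios, 0.15). PSMB10 to PSMB7 was 0.0955, 0.213 and 0.0969 in Con and 0.110, 0.132 and 0.131 in GLUP, which overlapped (log2 difference -0.02, exact permutation p = 1).

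**Figure D4:**
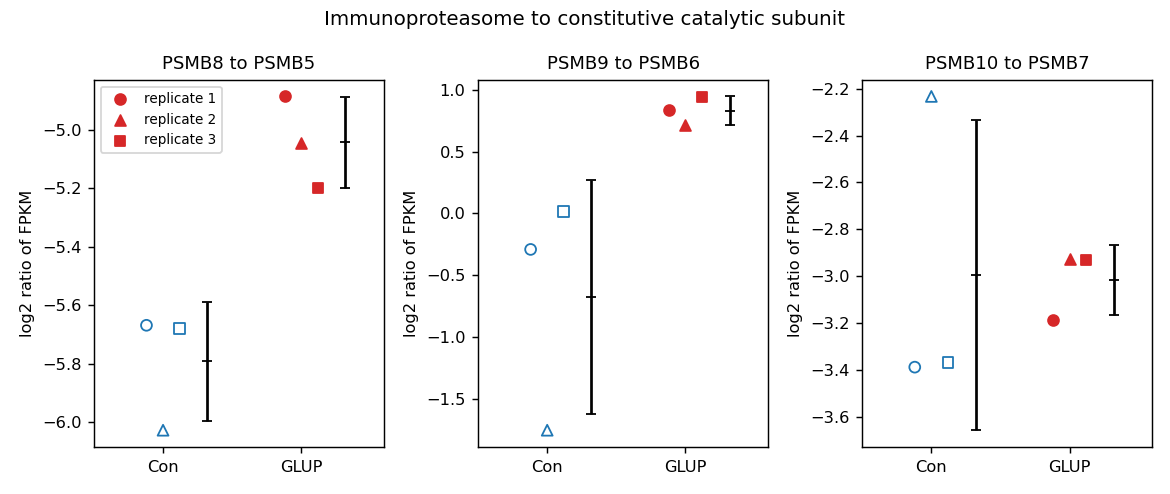
Log2 ratio of the FPKM of each immunoproteasome subunit to that of the constitutive subunit it replaces, in 3 panels with their own vertical axes, with open blue symbols for Con and filled red symbols for GLUP. Black bars are the mean ± SD (n = 3 libraries); the GLUP libraries lie above the Con libraries for PSMB8 to PSMB5 and PSMB9 to PSMB6, and among them for PSMB10 to PSMB7, where Con replicate 2 is highest.

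The ATPases form the ring that unfolds the substrate and opens the gate. Of the 6 genes, 4 were lower (66.7%, with 65.5% of all tested genes) and 2 higher in GLUP. The median difference of the 6, -0.50, became -0.06 once the GC and length trend was removed. PSMC5 was at 325, 253 and 260.4 FPKM in Con and at 185, 206 and 179 FPKM in GLUP (-0.55 ± 0.27). Its groups did not overlap, before or after the trend was removed (-0.57). Under the trimmed mean of log ratios they overlapped (-0.25). PSMC6 was at 36.9, 38.5 and 17.3 FPKM in Con and at 17.7, 19.4 and 15.7 FPKM in GLUP (-0.70 ± 0.36).

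Con replicate 3 lay among the GLUP libraries for PSMC6, whose difference was -0.04 after the trend was removed. PSMC4 was at 34.9, 11.9 and 38.6 FPKM in Con and at 44.9, 41.1 and 60.3 FPKM in GLUP (0.90 ± 0.44), higher in every GLUP library, and its difference was 0.38 without Con replicate 2. PSMC3, the most abundant ATPase, was at 569, 178 and 532 FPKM in Con and at 392, 415 and 421 FPKM in GLUP (0.11 ± 0.43). Without Con replicate 2, in which it was lowest, its difference was -0.43. FTSJ3 overlaps PSMC5 on the other strand at 4.37 FPKM, and the PSMC1 pseudogene PSMC1P1 was at 20.1 FPKM next to 78.9 FPKM for PSMC1.

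Among the 13 other subunits of the regulatory particle, 9 were lower in GLUP (69.2%, with 65.5% of all tested genes), and the median difference was -0.48. Without overlap, 6 of the 13 were lower, compared with 22.7% of all tested genes. After the GC and length trend was removed, the median was -0.15 and 10 were lower. PSMD1, a scaffold subunit, was at 30.5, 36.6 and 24.3 FPKM in Con and at 15.7, 16.3 and 14.3 FPKM in GLUP (-0.92 ± 0.29). PSMD14, the metalloprotease that cuts ubiquitin chains off the substrate, was at 81.0, 90.0 and 47.5 FPKM in Con and at 33.9, 36.9 and 34.2 FPKM in GLUP (-0.99 ± 0.33). PSMD12, a lid subunit, was at 17.1, 23.9 and 9.68 FPKM in Con and at 8.33, 7.64 and 9.17 FPKM in GLUP (-0.85 ± 0.35). These genes were lower in all 3 GLUP libraries, with Con replicate 3 the nearest control each time.

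PSMD1 kept a difference of -0.52 and PSMD14 of -0.51 after the GC and length trend was removed, without overlap, whereas PSMD12 (37.5% GC) stood at -0.27 with overlap. Without Con replicate 2, PSMD12 was at -0.57. PSMD4, a ubiquitin receptor and the most abundant gene of the group, was at 687, 674 and 654 FPKM in Con and at 468, 544 and 511 FPKM in GLUP (-0.41 ± 0.25). Its Con values lay close together and above all GLUP values, but the groups overlapped under the trimmed mean of log ratios (-0.11). ADRM1, also a ubiquitin receptor, was at 41.8, 4.88 and 88.7 FPKM in Con and at 85.2, 71.3 and 60.5 FPKM in GLUP. Its difference of 1.36 ± 0.80 rested on Con replicate 2 and was 0.23 without it. ADRM1 was chosen after its values were seen, for the largest positive difference on the log2 scale, and its ratio of group means was 1.601. PSMD13 was the only higher gene of the group without overlap (0.59 ± 0.37, and 0.19 without Con replicate 2), compared with 7.55% of all tested genes.

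The activators cap the core particle in place of the regulatory particle. PSME3, the nuclear activator, was at 22.8, 17.7 and 8.97 FPKM in Con and at 5.50, 6.34 and 6.39 FPKM in GLUP, a difference of -1.22 ± 0.35 and a GLUP mean of 0.369 times the Con mean. It had the largest negative difference of the 44 genes. Its difference was -0.97 after the GC and length trend was removed and -1.12 without Con replicate 2, and the groups did not overlap before or after the removal. Without Con replicate 3, it was -1.58 with a limma adjusted p of 0.0285, in a fit that called 16.3% of all tested genes lower. BECN1 overlaps PSME3 on the other strand at 8.89 FPKM, close to the mean of 11.3 FPKM of PSME3 itself.

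PSME1 and PSME2 form the interferon-inducible activator in the cytoplasm as partners in a single ring. PSME2 was at 5812, 6154 and 5639.5 FPKM in Con and at 3512, 3910.1 and 4709.8 FPKM in GLUP (-0.55 ± 0.21). PSME1 was at 227, 131 and 191 FPKM in Con and at 185, 183 and 216 FPKM in GLUP (0.12 ± 0.31). The groups were apart for PSME2 and overlapped for PSME1. Under the trimmed mean of log ratios, PSME2 overlapped (-0.25) and PSME1 was higher without overlap (0.42). Con replicate 2 was the lowest library for PSME1 and the highest for PSME2. Without it, PSME1 stood at -0.10. The difference of PSME2 against PSME1 was not tested. Reads of PSME2 could be shared with its pseudogenes PSME2P2 (64.3 FPKM) and PSME2P1 (44.5 FPKM).

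The assembly chaperones were split. Of the 5 genes, 3 were lower (60%, with 65.5% of all tested genes) and 2 higher in GLUP, and the median difference was -0.07. POMP, which helps to build and mature the core particle, was at 1192, 1789 and 787 FPKM in Con and at 543, 607 and 744 FPKM in GLUP (-0.92 ± 0.33). PSMG1, a chaperone of the alpha ring, was at 32.3, 17.7 and 12.7 FPKM in Con and at 10.6, 8.20 and 9.34 FPKM in GLUP (-0.98 ± 0.36). PSMG3, another chaperone of the alpha ring, was at 59.2, 30.1 and 82.2 FPKM in Con and at 109, 101 and 97.6 FPKM in GLUP (0.95 ± 0.38, and 0.55 without Con replicate 2).

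None of these 3 overlapped between the groups. Of the 5 assembly genes, 2 were lower without overlap, compared with 22.7% of all tested genes, and 1 was higher, compared with 7.55%. POMP had the lowest GC content of the 44 genes, 33.1%, and its difference was -0.16 after the GC and length trend was removed, with overlap. That of PSMG1 was -0.49 with overlap, and that of PSMG3 (59.4% GC) was 0.64 without overlap. Without Con replicate 3, the limma adjusted p was 0.0366 for POMP, 0.0407 for PSMG1 and 0.0464 for PSMG3. In that fit, 16.3% of all tested genes were called lower and 2.2% higher. PSMG2 (0.05 ± 0.35) and PSMG4 (-0.07 ± 0.32), their partners in the chaperone pairs, overlapped between the groups, and PSMG4 overlaps TUBB2B on the other strand.

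Summed over the 44 genes, proteasome transcripts held 2.48%, 2.42% and 2.15% of the FPKM total in Con replicates 1 to 3 and 1.64%, 1.80% and 1.97% in GLUP replicates 1 to 3. The mean share was 2.35% ± 0.175 in Con and 1.80% ± 0.166 in GLUP (SD, n = 3 each), and the groups did not overlap. PSME2 alone made up 22.9% to 27.7% of the sum, and without it the shares were 1.72% ± 0.147 and 1.37% ± 0.110. Mitochondrial genes take a varying part of the total. With these left out, the shares were 3.22% ± 0.248 and 2.44% ± 0.1003. A sum of FPKM follows its most abundant genes and is given as a description, without a test.

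**Figure D5:**
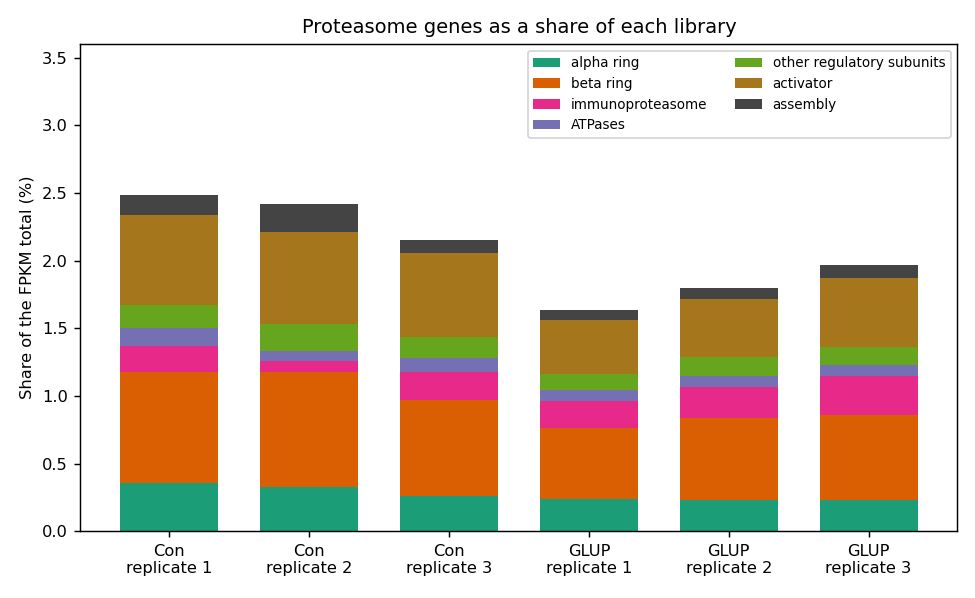
Share of the FPKM total (%) held by the 44 proteasome genes in each of the 6 libraries, stacked by the 7 groups of the complex. The Con bars reach 2.15% to 2.48% and the GLUP bars 1.64% to 1.97%, and the constitutive beta ring and the activators fill the largest parts of each bar.

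The other genes of the pathway were followed in lists, of which 38 genes were tested. None passed the adjusted threshold with all libraries, and limma gave 7 lower and 4 higher genes at an unadjusted p under 0.05 (18.4% and 10.5%, with 17.2% and 4.46% of all tested genes). All 4 ubiquitin genes had a higher mean in GLUP, with a median difference of 0.27 (0.57 under the trimmed mean of log ratios and 0.13 without Con replicate 2). Both activating enzymes had a lower mean, though only 1 of them under the trimmed mean of log ratios (UBA6, -0.35 ± 0.28, which was -0.15 without Con replicate 2 and 0.24 after the GC and length trend was removed). The 3 tested deubiquitinases and ligases that bind the proteasome were lower, 2 under the trimmed mean of log ratios, among them UCHL5, the deubiquitinase held by ADRM1, at 14.3, 18.7 and 6.35 FPKM in Con and 5.79, 5.59 and 6.28 FPKM in GLUP (-0.92 ± 0.37). After the GC and length trend was removed, UCHL5 stood at -0.28 and 1 of the 3 genes was lower.

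Of the 5 tested genes that act on proteasome transcription, 4 were lower in GLUP without overlap, compared with 22.7% of all tested genes. The median difference of the 5 was -0.55, and -0.25 after the GC and length trend was removed, with 4 still lower. The fifth, the NF-Y subunit NFYC, was higher without overlap (0.48 ± 0.31, and 0.22 without Con replicate 2). NFE2L2, a regulator of antioxidant and proteasome genes, was at 5.83, 12.4 and 4.41 FPKM in Con and at 3.04, 2.52 and 2.41 FPKM in GLUP (-1.12 ± 0.35, and -0.74 without Con replicate 2). NFE2L1, which drives proteasome genes when the complex is inhibited, was at 1.79, 1.57 and 1.48 FPKM in Con and at 1.12, 1.10 and 1.02 FPKM in GLUP (-0.33 ± 0.21), and like NFYC was named after its values were seen. Of the 3 tested shuttle factors, which carry substrates to the proteasome, 2 were lower, 1 under the trimmed mean of log ratios. In the list of VCP, the segregase that extracts ubiquitylated proteins, 2 of 5 tested genes were lower, FAF2 among them (-0.51 ± 0.28).

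Of the 9 tested further proteasome genes, 7 were lower in GLUP (5 after the GC and length trend was removed). Lower without overlap were 4 of the 9, compared with 22.7% of all tested genes. TXNL1, a thioredoxin-like protein that binds the regulatory particle, was at 77.03, 78.2 and 38.6 FPKM in Con and at 17.9, 15.7 and 17.2 FPKM in GLUP, a difference of -1.80 ± 0.34 that was -1.26 after the GC and length trend was removed. Among genes of class I peptide supply and the interferon response, 6 of 7 tested were higher. HLA-C, a class I molecule, was at 41.2, 13.3 and 64.2 FPKM in Con and at 129, 112 and 90.9 FPKM in GLUP (1.70 ± 0.50), and reads of the similar class I genes may be split between them. Without Con replicate 2, the difference of HLA-C was 1.08. Without Con replicate 3, limma called 6 lower and 2 higher genes of these lists at an adjusted p under 0.05 (15.8% and 5.26% of the 38, with 16.3% and 2.2% of all tested genes).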

How the data were processed

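RNA-sequencing of HGC-27 cells gave 6 libraries, grouped by their titles into 3 Con and 3 GLUP. The values deposited by the authors were FPKM in a single table, normalized to transcript length and library total, with no read counts. The submitters' processing notes name HISAT2, Cufflinks, RSEM and GRCh38.p10 without their roles, whereas the row identifiers carry the suffixes of a GENCODE annotation lifted to GRCh37, so the build of the values is uncertain and the strand setting is not given in the sources used here. The 49 pseudoautosomal copies on chromosome Y, all at 0, were summed with their counterparts. Symbols were matched for 62162 of 62443 genes. Depth was estimated only relatively, from FPKM times length in 19005 single-transcript genes. In each library, 4.35% to 6.35% of the values above 0 fell at a common step or at doublings of it. The step was chosen to give the largest such share, so counts were not recovered and no counting interval is given.

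Values were analysed as log2(FPKM + 1), a pseudocount of 1, for the 7406 genes whose mean reached 1 FPKM. limma 3.58.1 in R 4.3.3 (lmFit, eBayes with trend, two-sided, no covariates) compared GLUP with Con, with Benjamini-Hochberg adjustment over all tested genes and a threshold of 0.05. Each fold change is a difference of group means on that scale ± its limma standard error. The fit was tested on simulated data. A loess fit on GC content and length (span 0.5) was subtracted from each library as an alternative, with transcript properties from GENCODE release 44 lifted to GRCh37. Other alternatives were pseudocounts, filters, other scalings (trimmed mean of log ratios, with 30% trimmed by ratio and 5% by level), eBayes settings, a block for the replicate number and leave-one-out fits. Replicate numbers did not pair the libraries (correlations of deviations 0.13, -0.01 and -0.17), and no pair of libraries held identical values. In each group of subunits, the 3 genes with the smallest unadjusted p, the gene with the highest mean and all immunoproteasome genes are given by library, and in each further list the gene with the smallest p. Some genes of the marker and further lists are not reported here. The members and lists were chosen with earlier results of these data known. The software further included Python 3.11.15 with pandas 2.3.3, numpy 2.4.6, scipy 1.17.1 and matplotlib 3.10.9.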

Additional observations from a re-analysis of the deposited data

How the results depend on the processing

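The count of genes called over the whole table, 0 as reported, was 1 with a minimum mean of 5 FPKM, 1 without the eBayes trend, 1 with the replicate block, 1 with the replicate block after GC and length removal, 2 after that removal alone, 2 after it without Con replicate 2, and 0 to 1367 when each library was left out, the highest without Con replicate 3. Leaving out each library gave 0 to 11 called proteasome genes and 0 to 8 called genes of the pathway lists, again highest without Con replicate 3, which leaves 2 control libraries. The replicate block changed no call of a proteasome gene. The median difference of the proteasome genes, -0.38 as reported, was -0.079 under the trimmed mean of log ratios, -0.086 under the upper quartile, -0.11 centred on the median, -0.11 after GC and length removal (also with the replicate block) and -0.097 after it without Con replicate 2. The difference in their share of the FPKM total, -0.551 percentage points, was -0.784 without mitochondrial genes. PSMB3 turned to 0.28 under the trimmed mean of log ratios, 0.28 under the upper quartile and 0.25 centred on the median, and ranged from -0.12 to 0.10 over the left-out libraries. PSMB10 turned to -0.024 at a common total, -0.037 at a total without mitochondrial genes and -0.31 after GC and length removal (also with the block), and ranged from -0.11 to 0.19 over the left-out libraries. PSMC3 turned to -0.069 after GC and length removal (also with the block) and to -0.40 after it without Con replicate 2, and ranged from -0.43 to 0.41. PSME1 turned to -0.023 after the removal without Con replicate 2, and ranged from -0.10 to 0.29. UBA6 turned to 0.24 after the removal (also with the block) and to 0.20 without Con replicate 2 as well. The PSMB10 to PSMB7 ratio, -0.02 on the log2 scale, ranged from -0.21 to 0.36 over the left-out libraries. The cause was not tested. Both settings that join the GC removal with another choice were chosen after seeing the data. Of the 28 lower genes, 20 kept their sign in 7 scalings and 6 left-out libraries, and of the 16 higher genes 7 did. Over all results, 127 values that answer a comparison kept direction and call, 17 moved and 2 reversed, and of the values of single genes 697 kept both, 14 passed the threshold anew and 22 reversed.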
